A study of Sus scrofa with 28 samples.

Results

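Open chromatin in pig liver was followed at the genes of the proteasome, taken as a set without its interferon-inducible members. The genes were taken by symbol: protein-coding RefSeq genes of the build Sscrofa11.1 whose symbols begin with PSMA, PSMB, PSMC, PSMD, PSME, PSMF or PSMG, leaving out PSMB8, PSMB9, PSME1 and PSME2. That gave 45 genes of 19484 that code for protein and lie on the 19 chromosomes with peaks. The symbol rule is wider than the constitutive proteasome. It takes in PSMB10, an interferon-inducible beta subunit, PSMB11, a beta subunit of the thymus, PSMA8, an alpha subunit of the testis, and PSMC3IP, a meiotic recombination factor that is no proteasome subunit. A gene counted as listed in a library when the centre of a deposited peak lay within 1000 bp of either annotated end. Strand was not given in the table used, so the ends are called lower and higher by coordinate and cannot be named start and stop of transcription.

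The proteasome is the cell's main machine for breaking down ubiquitin-tagged proteins. Its core particle is a barrel with alpha rings at its ends, which gate the entrance, and beta rings between them, which carry the proteolytic sites. A regulatory particle on either end recognises ubiquitin, removes it and unfolds the substrate with a ring of ATPases, and dedicated chaperones assemble core and cap. The liver makes and turns over large amounts of protein, and proteasome genes are expressed in essentially all cells. These roles are known mainly from yeast and human work.

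The libraries are ATAC-seq, in which a transposase cuts accessible DNA and tags it for sequencing. All 28 come from livers of female Zlotnicka White pigs at 180 days and a slaughter weight of 100 ± 2 kg, kept and fed alike, and the tissue was digested with Accutase, strained and frozen before library preparation. They form 4 groups of 7: high fat content 200, low fat content 200, high fat content 600 and low fat content 600. The labels give the fat group under a tag for shear force and do not say what 200 and 600 stand for. No group is an untreated control, and the comparison is of high with low fat. A 200 and a 600 library that share their title number, fat content and replicate were treated as 1 animal, which the labels do not state. The 200 and 600 sets also carry different lane tags, so label and lane cannot be told apart.

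The file holds peaks and no read counts, so sequencing depth is unknown and no interval or detection floor is given. Libraries listed between 39 and 17652 peaks, and an unlisted gene may be closed, thinly sequenced or removed by a filter. Tissue was measured in bulk, so a site open in fewer cells and one less open per cell cannot be told apart. Hepatocyte markers were listed for 6 of 10 genes (60%), where 52.9% of all protein-coding genes with a symbol were. HPX was listed in 11 libraries, TTR and FGG in 8 each and ALB in 7, while APOB, AHSG, ASGR1 and CPS1 had none. Of other cells, 2 of 8 macrophage markers, 2 of 6 lymphocyte markers, 0 of 8 endothelial and stellate markers and 0 of 4 matched cholangiocyte markers were listed, the highest being CD14 in 6 libraries. Their part in the results below was not tested.

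Of the 45 genes, 30 (66.7%) had an end peak in at least 1 of the 28 libraries. The share was 47.0% over all protein-coding genes and 52.9% over the 16315 with a symbol, which is the closer measure for genes chosen by symbol. The difference from genes with a symbol was thus the smaller one. The difference of 19.6 percentage points from all protein-coding genes rested in large part on high fat 200 replicate 7. Without that library 24 of the 45 genes (53.3%) were listed, against 44.8% of all protein-coding genes, a difference of 8.58 points. The share of genes with a symbol was not worked out without that library. With 2 to 4 libraries required, the shares lay closer together than with 1, and with 5 to 10 required the proteasome genes were below both. In at least 2 libraries 42.2% of the proteasome genes were listed, against 35.4% of all protein-coding genes and 40.0% of those with a symbol. Of the 45, 15 (33.3%) were listed in at least 3 libraries, against 29.5% of all protein-coding genes and 33.4% of those with a symbol. In at least 4 libraries the shares were 31.1%, 24.8% and 28.2%. None was listed in 10 or more, against 7.82% and 8.98%. Of the 30 listed genes, 11 (36.7%) came from exactly 1 library, against 24.8% of all listed protein-coding genes. The median over the listed genes was 2.5 libraries, against 4 over all listed protein-coding genes. No test was made of these shares, since the genes were chosen with results of these data known.

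**Figure D1:**
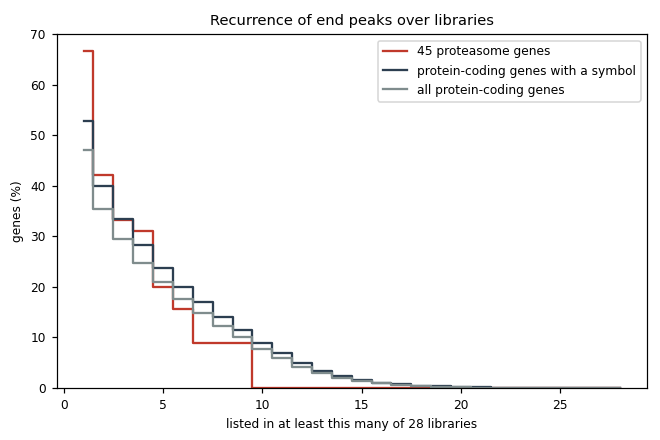
Share of genes (vertical axis, %) listed in at least the number of the 28 libraries on the horizontal axis, for the 45 proteasome genes (red), protein-coding genes with a symbol (dark) and all protein-coding genes (grey). The red line starts above the others at 66.7%, meets that of genes with a symbol at 3 libraries (33.3% and 33.4%) and reaches 0 at 10 libraries.

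The alpha genes of the core were the most repeatedly listed class, with 5 of 8 genes (62.5%), each in at least 4 libraries. Over all protein-coding genes with a symbol 52.9% were listed at least once and 28.2% in at least 4 libraries. Differences between roles were not tested. PSMA1 (chromosome 2, 44740102 to 44755296) had a peak at its lower-coordinate end in 9 libraries. In the 200 set its deposited −log10 p, the authors' value for the strongest point of the peak, was 6.09 and 5.35 in high fat replicates 1 and 7, and 4.88, 4.68 and 5.16 in low fat replicates 1, 6 and 7. In the 600 set it was 4.36 and 4.30 in high fat replicates 1 and 7, and 3.57 and 3.95 in low fat replicates 1 and 7. Of the 5 animals with the peak, 4 carried it in both sets and low fat animal 6 in its 200 library only. Both fat groups held libraries with and without it. The combined region ran from 44739594 to 44740698.

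PSMA5 and PSMA2 were listed in 6 libraries each and followed one pattern, with 2 libraries in each of high fat 200, low fat 200 and high fat 600 and none in low fat 600. PSMA5 (chromosome 4, 110695429 to 110717308) had a −log10 p of 5.13 and 5.66 in high fat 200 replicates 1 and 7, 5.06 and 3.77 in low fat 200 replicates 1 and 6, and 4.47 and 4.09 in high fat 600 replicates 1 and 7. PSMA2 (chromosome 18, 51909399 to 51919859) had 5.35 and 4.37 in high fat 200 replicates 1 and 7, 3.73 and 4.52 in low fat 200 replicates 1 and 6, and 3.57 and 3.33 in high fat 600 replicates 1 and 7. The libraries that listed one of these genes also listed the other.

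PSMA6 (chromosome 7, 64578247 to 64603351) was listed in 5 libraries, at its higher-coordinate end. Its −log10 p was 5.35 and 4.81 in high fat 200 replicates 1 and 7, 4.25 and 4.30 in low fat 200 replicates 1 and 7, and 3.48 in high fat 600 replicate 7. PSMA4 was listed in 4 libraries, 1 per group, with values from 3.26 to 4.48. PSMA3, PSMA7 and the testis gene PSMA8 had no peak centre within 1000 bp of an end.

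The beta genes, which encode the proteolytic ring, were the least listed class, with 3 of 9 genes (33.3%) and 1 library each. Over protein-coding genes with a symbol 52.9% were listed at least once. The beta class is small and takes in PSMB10 and PSMB11. PSMB5, the subunit with chymotrypsin-like activity, had a peak in low fat 600 replicate 7 (−log10 p 3.42), and PSMB7, with trypsin-like activity, had one in high fat 200 replicate 7 (4.60). PSMB10 had one in the same library as PSMB7 (4.12), whose centre lay 947.5 bp inside the gene from its higher end and thus close to the limit of the window. PSMB1, PSMB2, PSMB3, PSMB4, PSMB6, which carries the caspase-like site, and PSMB11 had none. The alpha class held 30 pairs of a gene and a library that listed it, and the beta class 3. For 4 of the 6 unlisted beta genes the nearest peak of any library was between 6617 bp (PSMB6) and 11308 bp (PSMB4) from an end. It was 1557 bp away for PSMB1 and 27532 bp for PSMB2.

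Of the ATPase genes of the regulatory particle, 5 of 6 were listed (83.3%), and 3 of the 6 in at least 3 libraries. Over protein-coding genes with a symbol these shares were 52.9% and 33.4%. PSMC6 (chromosome 1, 182329070 to 182354959), which encodes a subunit of the unfolding ring, was listed in 9 libraries of 6 animals, more animals than any other of the 45 genes. Its −log10 p in the 200 set was 7.32 and 6.32 in high fat replicates 1 and 7, and 5.38, 4.11, 4.47 and 6.20 in low fat replicates 1, 4, 6 and 7. In the 600 set it was 4.67 in high fat replicate 7, and 3.47 and 3.53 in low fat replicates 1 and 7. In high fat 200 replicate 1 this was stronger than 95.1% of that library's peaks, and in low fat 600 replicate 7 its peak ranked at 25.7%. PSMC2 was listed in 4 libraries, all of the 200 set (−log10 p 4.62 to 5.18), PSMC3 in 3, PSMC1 in 2 and PSMC4 in 1, while PSMC5 had none.

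Of the other subunits of the regulatory particle, 9 of 11 were listed (81.8%), 6 of them in 1 or 2 libraries and 3 in at least 3. Over protein-coding genes with a symbol 52.9% were listed at least once and 33.4% in at least 3 libraries. PSMD14 (chromosome 15, 68107379 to 68208884), the enzyme that cuts ubiquitin off the substrate, stood out with 9 libraries and with the highest −log10 p of any proteasome peak. In the 200 set it had 7.70 and 5.18 in high fat replicates 1 and 7, and 6.06, 4.68 and 6.20 in low fat replicates 1, 6 and 7. In the 600 set it had 4.12 and 4.49 in high fat replicates 1 and 7, and 4.08 and 5.08 in low fat replicates 1 and 7. These are the same 9 libraries as for PSMA1. In none of them did the PSMD14 peak rank below 56.7% of the library's peaks.

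The large scaffold genes PSMD1 and PSMD2 followed with 4 libraries each, PSMD1 with −log10 p from 3.73 to 5.51 and PSMD2 with 3.77 to 4.81. PSMD8 and PSMD11 were listed in 2 libraries each, and PSMD3, PSMD7, PSMD12 and PSMD13 in 1 each. The PSMD13 peak, in high fat 200 replicate 4, lay 421.5 bp outside the gene and 76.5 bp from the end of COX8H, a cytochrome c oxidase subunit gene. The ubiquitin receptor gene PSMD4 had no peak within 34388 bp of an end, the longest such distance among the 45 genes.

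PSME4 (chromosome 3, 87231510 to 87337709), which encodes the PA200 activator that caps the core in place of the regulatory particle, was listed in 9 libraries. Its −log10 p in the 200 set was 6.68 and 5.18 in high fat replicates 1 and 7, and 4.88, 4.36 and 5.27 in low fat replicates 1, 6 and 7. In the 600 set it was 4.49 in high fat replicate 7, and 3.26, 3.21 and 4.53 in low fat replicates 1, 6 and 7. It was the only gene of the 45 listed in low fat 600 replicate 6. PSME3, the nuclear PA28 gamma activator, and PSMF1, the PI31 inhibitor, were listed in 1 library each. The PSME3 peak, in high fat 200 replicate 3, lay 777 bp inside the gene.

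Among assembly chaperones 5 of 7 genes were listed (71.4%), and 3 of the 7 in at least 3 libraries. The shares over protein-coding genes with a symbol were 52.9% and 33.4%. PSMD10 (chromosome X, 88540261 to 88548593), the cap chaperone gankyrin, was listed in 6 libraries, 3 of each label. Its −log10 p was 4.88 and 5.35 in high fat 200 replicates 1 and 7, 4.44 in low fat 200 replicate 7, 3.61 in high fat 600 replicate 7, and 4.08 and 4.30 in low fat 600 replicates 1 and 7. PSMG4 (chromosome 7, 1980295 to 1987946), a chaperone of the alpha ring, was listed in 5 libraries and only in the 200 set. Its −log10 p was 4.62 and 4.60 in high fat replicates 1 and 7, and 4.01, 3.57 and 3.98 in low fat replicates 1, 5 and 6. PSMG1 was listed in 4 libraries, PSMD5 in 2 and PSMG2 in 1, and PSMG3 and PSMD9 in none. PSMC3IP was listed in none.

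**Figure D2:**
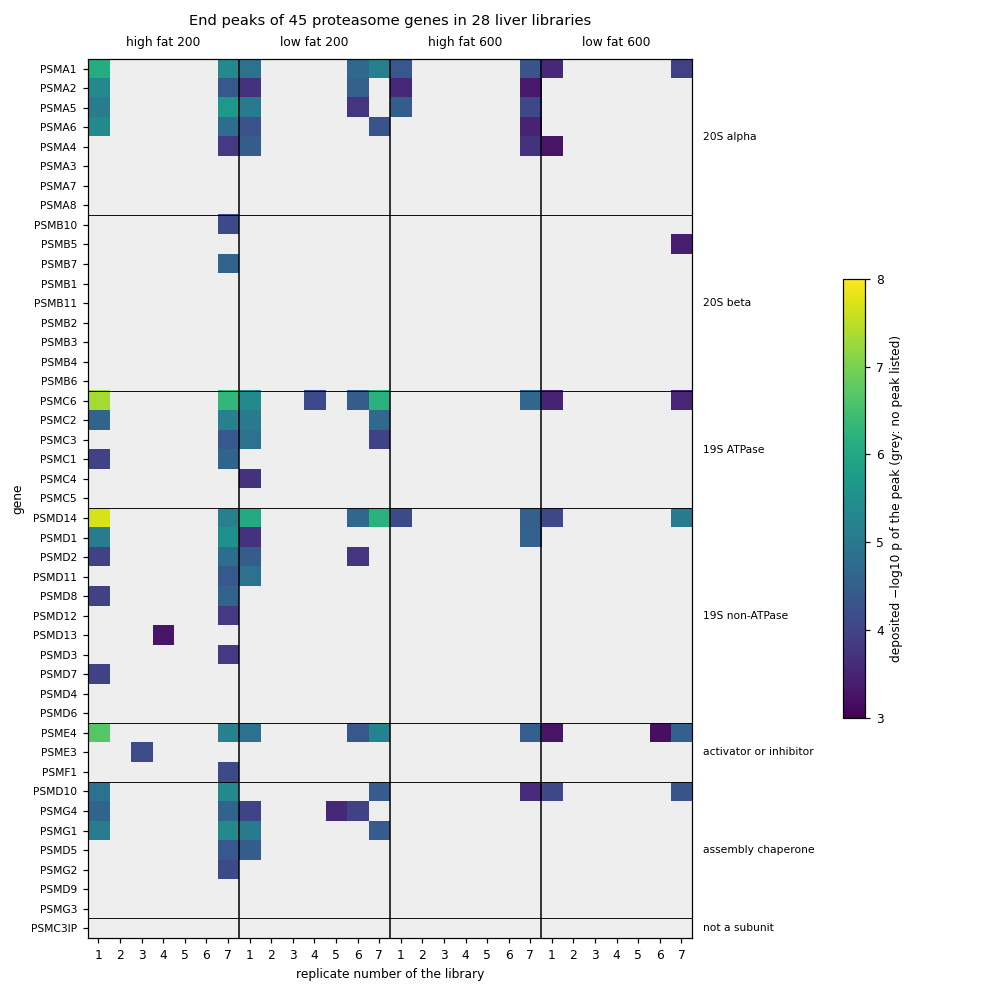
Deposited −log10 p of the end peak (colour, 3 to 8) of each of the 45 genes (rows, by role) in each of the 28 libraries (columns, replicate numbers 1 to 7 in each of 4 groups); grey means that no peak was listed. Filled cells stand in the columns of few animals, 9 libraries for PSMA1, PSMC6, PSMD14 and PSME4 and at most 1 for each beta gene.

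Listing was gathered in few animals. Of the 106 pairs of a gene and a listing library, 102 (96.2%) came from 5 animals, high fat 1 and 7 and low fat 1, 6 and 7. Their 200 libraries also listed the largest shares of all protein-coding genes, 14.7% to 36.3%. Other 200 libraries listed at most 10.5%. Their 600 libraries listed 5.67% to 21.7%, and the other 600 libraries at most 2.36%. The other 4 pairs were PSME3 and PSMD13 in high fat 200 replicates 3 and 4, and PSMC6 and PSMG4 in low fat 200 replicates 4 and 5. No gene of the 45 was listed in 14 libraries, of which the richest had 1336 peaks. Each of these 14 listed at most 2.90% of all protein-coding genes. Each library with at least 4 of the 45 genes had at least 3332 peaks.

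High fat 200 replicate 7 listed 25 of the 45 genes (55.6%), where 32.2% of all protein-coding genes were listed. High fat 200 replicate 1 had more peaks, 17652 against 11943, yet listed 16 (35.6%), close to its 36.3% of all protein-coding genes. Of the 11 genes seen in a single library, 6 were seen only in high fat 200 replicate 7. These were PSMB7, PSMB10, PSMD3, PSMD12, PSMF1 and PSMG2, with −log10 p values from 3.84 to 4.60.

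Low fat 200 replicate 1 listed 17 (37.8%, against 26.3%), replicate 6 listed 8 (17.8%, against 14.7%) and replicate 7 listed 9 (20%, against 21.4%). The other 200 libraries that listed any of the genes listed 1 each. High fat replicate 3, with 6288 peaks, listed 1 gene (2.22%, against 8.12%), and low fat replicate 4, with 2467 peaks, also listed 1 (against 10.5%). High fat replicate 4 listed 1 (against 3.98%) and low fat replicate 5 listed 1 (against 1.45%).

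In the 600 set high fat replicates 1 and 7 listed 4 and 10 genes (8.89% and 22.2%, against 17.1% and 21.7%). Low fat replicates 1, 6 and 7 listed 6, 1 and 6 (13.3%, 2.22% and 13.3%, against 13.9%, 5.67% and 13.8%). The share of proteasome genes was thus below that of all protein-coding genes in 4 of these 5 libraries and above it in high fat replicate 7. A single proteasome gene amounts to 2.22%, and in 3 of the 5 libraries the difference was smaller than that.

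**Figure D3:**
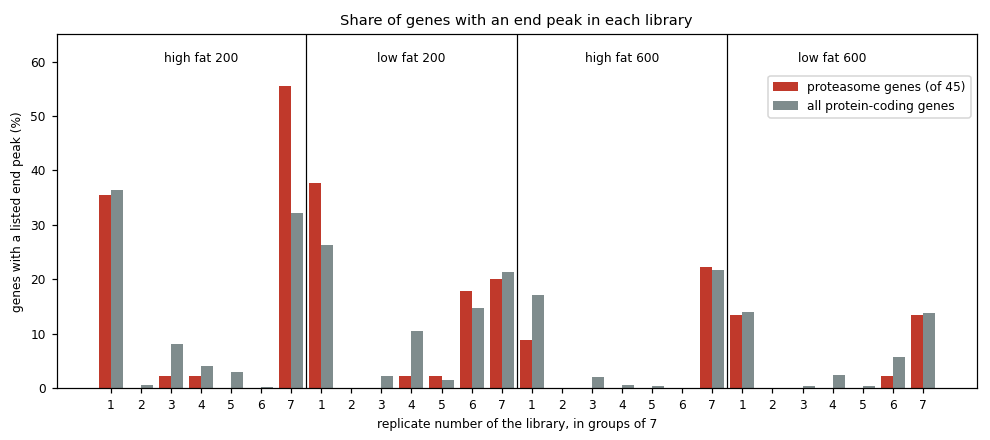
Share of genes with an end peak (vertical axis, %) in each of the 28 libraries (horizontal axis, replicate numbers in 4 groups of 7), for the 45 proteasome genes (red bars) and all protein-coding genes (grey bars). The red bar is well above the grey one in high fat 200 replicate 7 (55.6% and 32.2%) and below it in high fat 200 replicate 3 (2.22% and 8.12%).

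The peaks of proteasome genes were tightly placed. Each of the 30 listed genes had peaks at a single end, 16 at the lower-coordinate and 14 at the higher-coordinate end, and 0 at both, while 6.23% of all listed protein-coding genes had peaks at both ends. The median distance of the peak centre from the end was at most 150 bp in 26 of the 30 genes (86.7%), against 48.8% of listed protein-coding genes. Over the 106 peaks the median distance was 61.8 bp, against 134 bp over the 40835 end peaks of protein-coding genes. The 4 genes beyond 150 bp were PSMB5, PSMB10, PSMD13 and PSME3, each with 1 peak.

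Proteasome end peaks were also narrower, with a median of 561.5 bp (236 to 1500 bp) against 754 bp for all end peaks. Their pooled −log10 p had a median of 4.47 against 4.42. These medians pool 200 and 600 libraries, whose peaks differ in width and −log10 p. In high fat 200 replicates 1 and 7 the median widths were 474.5 and 539 bp, against 569 and 672 bp for all end peaks. In high fat 200 replicate 4, with 1 such peak, it was wider (492 against 460 bp). Median −log10 p was higher in replicate 1 (5.13 against 4.88) and lower in replicate 7 (4.60 against 5.00). Widths and −log10 p are given as a description, and the part of label and library depth in them was not tested.

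PSMA3 and PSMD6 had no peak centre in the window but had one beyond it in more libraries than any of the 30 listed genes. In 6 libraries the PSMA3 peak itself reached into the window. PSMA3, an alpha gene (chromosome 1, 187342231 to 187371149), had a peak inside the gene in 10 libraries, 1236 to 1435.5 bp from its lower end, within 187342897 to 187344195. Its −log10 p was 6.68 and 6.40 in high fat 200 replicates 1 and 7, and 5.06, 4.49 and 5.36 in low fat 200 replicates 1, 4 and 7. It was 4.57 and 4.40 in high fat 600 replicates 1 and 7, and 3.66, 3.50 and 3.29 in low fat 600 replicates 1, 4 and 7.

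PSMD6 (chromosome 13, 45506334 to 45529481), a subunit gene of the regulatory particle, also had a peak inside the gene in 10 libraries. The centres lay 2203.5 to 2385.5 bp from its higher end, within 45526663 to 45527639. Its −log10 p was 5.55, 3.61 and 5.35 in high fat 200 replicates 1, 4 and 7, and 4.01, 4.22, 3.77 and 5.06 in low fat 200 replicates 1, 4, 6 and 7. It was 3.41 and 3.33 in high fat 600 replicates 1 and 7, and 3.42 in low fat 600 replicate 7. At both genes the centres of 10 libraries thus fell within a short stretch away from the annotated end. With a window of 2500 bp 35 of the 45 genes (77.8%) were listed, against 54.0% of all protein-coding genes. PSMA3 and PSMD6 were the 2 of them in 10 or more libraries, where 8.62% of protein-coding genes were.

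Of the other 13 unlisted genes, PSMA7, PSMB1 and PSMG3 had 1 peak each between 1548 and 1694.5 bp from an end, in a single library. The remaining 10 had none within 2500 bp. At the edge of the window, the peak of PSMB10 at 947.5 bp was inside it and one of low fat 200 replicate 4 at the same gene, 1068.5 bp from the end, was outside.

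**Figure D4:**
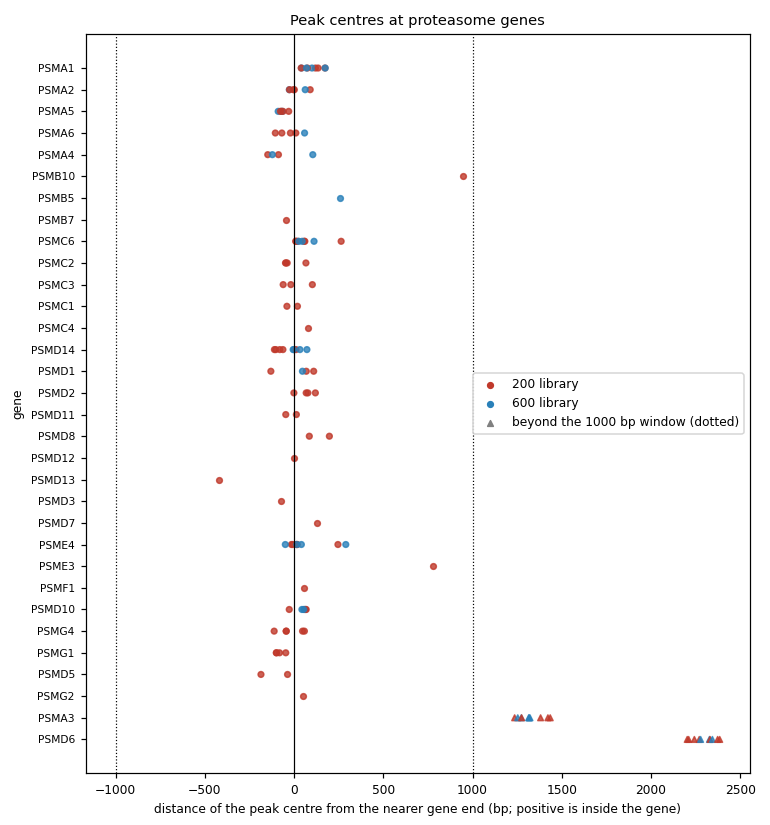
Distance of each peak centre from the nearer annotated gene end (horizontal axis, bp, positive inside the gene) for the 30 listed genes and for PSMA3 and PSMD6 (rows); red points are 200 libraries and blue points 600 libraries, triangles lie beyond the window of 1000 bp marked by dotted lines. Most points lie within 150 bp of the end, while PSMA3 and PSMD6 each show 10 triangles in a short stretch inside the gene.

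Several of these ends are shared with a neighbour, so a peak cannot be given to 1 gene alone. Of the 45 genes, 22 had the end of another RefSeq gene within 1000 bp of an end of theirs, and 15 of those (68.2%) were listed, against 61.4% of all protein-coding genes with such a neighbour. Of the 23 without one, 15 (65.2%) were listed, against 39.7%. At 12 of the 30 listed genes the neighbour stood at the listed end, for 7 a protein-coding and for 5 a noncoding gene.

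The end of PSME4 lies 134 bp from that of ACYP2, an acylphosphatase gene, that of PSMA2 108 bp from MRPL32, a mitochondrial ribosomal protein gene, and that of PSMC2 85 bp from DNAJC2, a ribosome-associated chaperone gene. PSMG1 lies 439 bp from BRWD1. At PSME4, PSMA2 and PSMG1 all peak centres were nearer to the proteasome gene, while at PSMC2 2 of 4 were nearer to DNAJC2. At PSMA5 5 of 6 centres were nearer to the end of a noncoding RNA gene without a symbol, with a median distance of 20.5 bp from that end and 69.5 bp from PSMA5. Such a gene was also nearer at 3 of 5 centres of PSMG4 and 3 of 9 of PSMD14, and at 0 of 9 of PSMA1. The PSMD5, PSMD13 and PSMG2 centres, 2, 1 and 1, were all nearer to a neighbouring protein-coding gene. Which of the neighbouring genes such a peak belongs to cannot be told apart. Over the 12 genes, 17 of 57 peaks were nearer to the neighbour's end. The unlisted PSMC5 has the end of SMARCD2 at 47 bp, and the unlisted PSMA7 has SS18L1 at 103 bp and LSM14B at 131 bp.

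High and low fat livers were compared, the contrast named in the series title, gene by gene over all protein-coding genes listed in at least 3 of the libraries compared. In the 200 libraries 14 proteasome genes entered among 5191 genes, and none passed the adjusted threshold (Fisher's exact test, two-sided, adjusted p = 1 for each). Of these 14, 2 were listed in more high than low fat libraries, PSMD1 and PSMD10 (2 against 1 each), where 27.6% of all genes tested were, and 6 in more low fat libraries, where 44.2% were. The largest difference was that of PSMC6, with 2 high and 4 low fat libraries (exact p = 0.592 unadjusted). PSMA1, PSMD14, PSME4 and PSMG4 had 2 against 3, PSMC3 had 1 against 2, and the other 6 genes 2 against 2.

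In the 600 libraries 5 proteasome genes entered among 2704. PSME4 was listed in 1 high and 3 low fat libraries (Fisher's exact test, p = 0.559 unadjusted, adjusted p = 1). PSMC6 and PSMD10 had 1 against 2, and PSMA1 and PSMD14 2 against 2. Thus 0 of 5 were listed in more high fat and 3 in more low fat libraries, against 24.1% and 40.5% of all genes tested. Counted once per animal over both labels, PSMC6 had 2 high and 4 low fat animals (Fisher's exact test, p = 0.592, adjusted p = 1). Over all genes 0% passed the adjusted and 0% the unadjusted threshold of 0.05 in each of these 3 comparisons.

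At 7 libraries against 7 the smallest possible p is 0.000583, but no tested gene had a p below 0.0699 in these 3 comparisons. The adjustment ran over 5191 genes in the 200 set, 2704 in the 600 set and 5446 by animal. With so many genes, 1 gene at 0.000583 could not pass the adjusted threshold unless many others shared that p. That p also needs a gene listed in all 7 libraries of 1 group and in none of the other. High fat 200 replicates 2 and 6 listed only 99 and 20 protein-coding genes, and low fat 200 replicate 2 listed 13. Few genes of the 200 set could thus have reached it. The absence of called genes therefore does not decide whether any single gene differed. High fat 200 libraries listed 0 to 25 proteasome genes (median 1) and low fat 200 libraries 0 to 17 (median 1). High fat 600 libraries listed 0 to 10 and low fat 600 libraries 0 to 6, with a median of 0 in each. The mean share of proteasome genes was 13.7% in high fat 200 libraries, against 12.0% of all protein-coding genes. In low fat 200 libraries it was 11.4%, against 10.9%. In the 600 set it was 4.44% (high fat, against 5.98%) and 4.13% (low fat, against 5.22%). Peak numbers ran from 205 to 17652 in high fat 200 and from 196 to 8221 in low fat 200 libraries. Their part in the counts of proteasome genes was not tested. In these counts the groups overlapped throughout, and the spread within a group exceeded the difference between groups. The means were 6.14 ± 10.2 (SD, n = 7) and 5.14 ± 6.47 genes in the 200 set. A p of this size does not show that the fat groups were alike. Whether the fat difference itself differed between the 200 and 600 sets was examined with an exact permutation test in which fat labels were exchanged among the 14 animals. None of 15 proteasome genes passed (the smallest unadjusted exact p was 0.462, for PSMA2 and PSMA5), nor did any other gene after adjustment (0% adjusted, 0.0697% unadjusted).

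The 600 libraries listed fewer proteasome genes than the 200 libraries. In the 200 set 29 of the 45 (64.4%) were listed at least once, where 46.1% of protein-coding genes were, and in the 600 set 11 (24.4%), where 26% were. Of the 29 genes listed in the 200 set 10 (34.5%) were also listed in the 600 set, against 54.3% of the 8984 protein-coding genes listed in the 200 set. By role these 10 were 5 of 5 alpha genes, 0 of 2 beta genes, 1 of 5 ATPase genes, 2 of 9 non-ATPase genes, 1 of 3 activator or inhibitor genes and 1 of 5 chaperone genes. Differences between roles were not tested. PSMB5 was listed in the 600 set only.

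Of the 15 proteasome genes tested among 5741 genes, 13 were listed in fewer 600 than 200 libraries and 0 in more, against 84.1% and 6.15% of all genes tested. PSMG4, whose end lies 77 bp from a noncoding gene, was listed in 0 of 14 libraries of the 600 set and 5 of 14 of the 200 set, the largest difference (Fisher's exact test, p = 0.0407 unadjusted, adjusted p = 0.831). It was the 1 proteasome gene below an unadjusted 0.05 in this test, which ignores the assumed pairing of libraries by animal. Of all genes tested, 4.11% were below 0.05 in this direction and 0.0174% in the other. PSMC2, PSMD2 and PSMG1 had 0 against 4 (exact p = 0.0978, adjusted p = 0.831) and PSMC3 0 against 3. PSMA4 with 2 against 2 and PSMD10 with 3 against 3 showed no difference in number. None passed the adjusted threshold, nor did any other gene (0%). Within animals, by an exact sign test over the assumed pairs, PSMG4 had a p of 0.0625 and an adjusted p of 0.569, and 1.79% and 0.0174% of all genes were below an unadjusted 0.05.

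What the 600 libraries listed was mostly a part of what the 200 libraries listed. Of 27 pairs of a proteasome gene and an animal listed in the 600 set, 25 (92.6%) were also listed in the 200 library of that animal, against 89.4% over all protein-coding genes. The exceptions were PSMD10 in low fat animal 1 and PSMB5 in low fat animal 7. Where both libraries had the peak, that of the 600 library was wider in 24 of 25 pairs, with a median of 1010 bp against 555 bp, and had the lower −log10 p in 25 of 25, with a median of 4.08 against 5.27. Over all protein-coding genes the 600 peak was wider in 91.0% and lower in −log10 p in 95.7% of pairs. Lane, label and depth cannot be told apart here.

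**Figure D5:**
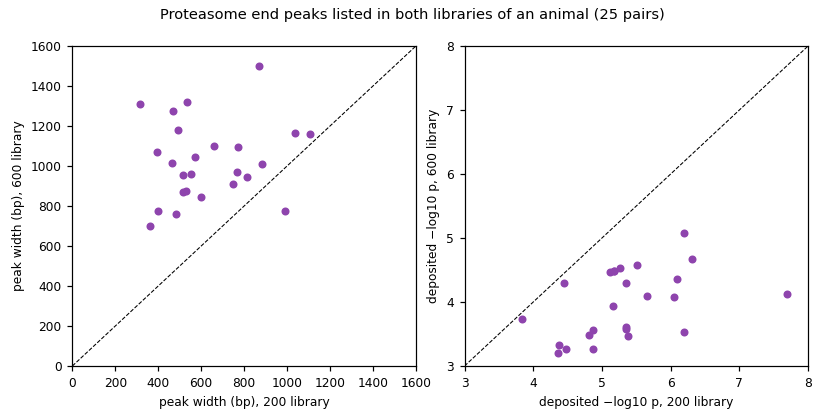
Width in bp (left) and deposited −log10 p (right) of proteasome end peaks listed in both libraries of an animal, with the 200 library on the horizontal and the 600 library on the vertical axis; each of the 25 points is 1 gene in 1 animal and the dashed line marks equal values. In the left plot 24 points lie above the line, and in the right plot all 25 lie below it.

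Other genes of the pathway were read in the same way, from lists chosen by function. Over all protein-coding genes with a symbol, 52.9% were listed at least once and 8.98% in at least 10 libraries, with a median of 1 library. Of further subunits, proteasome-bound enzymes and factors of assembly or import, 6 of 10 matched genes were listed (60%), and 2 in at least 10 libraries, with a median of 4. The deubiquitinase gene UCHL5, whose product binds the regulatory particle, was listed in 14 libraries and TXNL1, a thioredoxin-like gene of the same particle, in 11. UBLCP1 followed with 9, USP14 with 5 and the ubiquitin receptor gene ADRM1 with 4, while SEM1, PAAF1, AKIRIN2 and UBE3C had none.

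Genes that control transcription of proteasome genes or the factors concerned were listed for 8 of 11 (72.7%), 3 of them in at least 10 libraries, with a median of 4 over the 11. NFE2L1, the factor that raises proteasome gene transcription when proteolysis is inhibited, was listed in 5 libraries and its relative NFE2L2 in 7. SEL1L, of the endoplasmic reticulum ubiquitin ligase, had 16, and BACH1 and FBXW7 had 12 each, while NGLY1, MAFG and MAFK had none.

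Of genes for ubiquitin, its activation and delivery, and unfolding, 15 of 18 were listed (83.3%), 4 of them in at least 10 libraries, with a median of 3 over the 18. No list was tested against other genes. RAD23B, a shuttle that brings ubiquitinated proteins to the proteasome, had 17 libraries, and the unfoldase gene VCP and ZFAND5 had 14 each. NPLOC4, UBA6 and UBQLN2 had none. The interferon-inducible genes left out by the symbol rule were all 4 listed, 2 of them in at least 10 libraries, PSMB9 in 18 libraries, PSME2 in 10, PSMB8 in 7 and PSME1 in 6. PSMB8 and PSMB9 encode the inducible counterparts of PSMB5 and PSMB6, which were listed in 1 and 0 libraries. In the fat comparison of the 200 set PSMB9 had 5 high and 6 low fat libraries and RAD23B also 5 and 6.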

How the data were processed

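Per the submitters' processing notes, reads were handled with FastQC, BWA, SAMtools, Picard and Genrich on Sscrofa11.1; the sources used here give no versions, roles or filters. In the deposited table the authors list peaks per library with a signal value (the peak's area), a score, and a p-value column that holds −log10 p, since the authors' values there lie far above 1. Replicates were not pooled. Start coordinates were read as counted from 0 and are printed from 1.

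Gene ends were read from RefSeq annotation of that assembly, and 2298 RefSeq genes of any biotype outside the 19 chromosomes were left out. A gene was listed where a peak centre lay within 1000 bp of an end. Genes listed in at least 3 libraries were tested by Fisher's exact test, two-sided, across all protein-coding genes, adjusted by Benjamini-Hochberg and called under 0.05; the planned exact permutation and sign tests were added as stated. Code was tested on simulated data. The table gives peaks and no read counts, so depth is unknown and a count test was not run. Strand, promoter sequence and a genome were not used here, so the planned motif search and start-site alternative were not run.

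The members, lists, tests and the rule for named genes were chosen with earlier results of these data known. The rule gives every library's value for the 10 most listed genes; a tie of 5 genes at 4 libraries would have passed the limit, so 9 are given. PSMA3 and PSMD6 were singled out after their values were seen. The tables did not match ECPAS, POMP, DDI2 and KRT7. That a title number marks 1 animal is an assumption; log10 peak numbers of the 14 pairs, taken as deviations from group means, correlated (Pearson r = 0.971). Replicates are libraries that the labels number separately; separate animals are not stated, so p-values measure the spread between libraries. Scripts ran under Python 3.11.15 with scipy 1.17.1 for tests, pandas 2.3.3 and numpy 2.4.6 for tables, and matplotlib 3.10.9 for figures.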

Additional observations from a re-analysis of the deposited data

Results flagged for a closer look

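High fat 600 replicate 7 listed 10 proteasome genes, while the next library of its group, replicate 1, listed 4 and the other 5 listed 0. Its gap to the nearest library was 0.6 of the group's range, above Dixon's 95% critical value for 7 libraries. Chance flags about 1 in 20 groups if values are normally spread, which these counts, mostly 0, are not. Both ends of other measures and groups were examined in the same way, so that rate does not hold for this flag. The library also had the most peaks of its group, 6453. Its share of the proteasome genes was 22.2%, close to the 21.7% it listed of all protein-coding genes. Replicate 1 listed 8.89% of the proteasome genes, against 17.1% of all protein-coding genes. The part of the peak number in the count of high fat 600 replicate 7 was not tested. The 200 library taken to be of the same animal listed 25 proteasome genes against 16 in the next, which did not pass the same limit.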

How the results depend on the processing

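The count of 30 listed proteasome genes lay between 20 and 35 under other windows, other ways to locate a peak, stronger peaks or richer libraries, and between 24 and 30 with any 1 library left out. Shares beside these counts are over all protein-coding genes, not over those with a symbol. With only peaks above the median strength of the label it was 20 (44.4%, against 33.0%), a difference of 11.4 points. With a window of 2500 bp the count was 35 (77.8%, against 54.0%). With 1 library left out the lowest was 24 (53.3%, against 44.8%), that without high fat 200 replicate 7. This lowered the difference in shares from 19.6 to 8.58 points. Without both libraries of that animal, chosen after the data were seen, the count was also 24 (against 44.0%). When a gene had to be listed in at least 3 libraries, the counts were 15 in all libraries, 14 in the 200 set and 5 in the 600 set of the 45, where 29.5%, 26.6% and 13.9% of protein-coding genes were listed that often. With only peaks above the median strength of the label, the 600 set gave 7 in place of 11 (15.6%, against 16.5%). The PSMC6 difference in the 600 set turned from −1 to 1 library (high minus low fat) with such stronger peaks. In the 600 against 200 comparison 2 genes passed with a window of 2500 bp, where 0 had passed, and neither was a proteasome gene; the cause was not tested. With the replicate block the number of genes called was 0 in each of the 4 comparisons, as without it; between fat groups the libraries share only a replicate number (r = 0.484 and 0.551 over 7 pairs). The start-site alternative was not run, since strand was not used here. The 3 fat comparisons gave 0 genes under all alternatives run. Depth is unknown and limits every statement on unlisted genes.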

Other observations

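Within their own libraries, proteasome end peaks ranked near the middle by strength. The median rank over the 106 peaks was 55.3% of the library's peaks, against 59.3% for all end peaks of protein-coding genes, and 3 peaks ranked at 90% or higher. These 3 were PSMC6, PSMD14 and PSME4 in high fat 200 replicate 1, at 95.1%, 96.4% and 91.6%. In that library the median proteasome peak ranked at 72.4%, whereas in high fat 200 replicate 7, which listed more of the genes, it ranked at 47.0%, against 62.1% for all its end peaks.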
